A study of Mus musculus with 8 samples.

Results

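The Wnt pathway genes described here are the protein-coding genes for the Wnt ligands, the Frizzled receptors, the R-spondins, the Dickkopf (Dkk) and secreted Frizzled-related (Sfrp) antagonists, and 15 further receptors, antagonists and effectors named singly. Selection was by gene symbol alone and gave 56 members of the 55421 genes in the deposited table: 19 Wnt ligands, 7 R-spondins and LGR receptors, 10 Frizzled receptors, 3 LRP co-receptors, 13 secreted antagonists and 4 effectors or feedback genes. RNA came from the tibiae and femurs of 8 wild-type male C57BL/6 mice that were 15 weeks old when the experiment began. Of these, 4 received 10 mg/kg doxorubicin, a DNA-damaging chemotherapy drug, injected into the abdomen on day 0, and 4 received saline. All were killed on day 30, the bone ends were cut off, the marrow was spun out, and each library held the bones of 1 mouse. The series presents the drug as a model of senescence after chemotherapy, and the comparison asked how the Wnt genes of bone differed between doxorubicin and vehicle mice at that time.

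Wnt proteins are secreted lipid-modified ligands that bind Frizzled receptors. In the canonical branch they also engage the co-receptors LRP5 and LRP6, which stops the destruction of beta-catenin and lets it act with TCF and LEF proteins in the nucleus. In bone this branch promotes the formation and work of osteoblasts, and it is restrained by secreted antagonists such as sclerostin, the product of Sost, which osteocytes make. Other Wnt ligands, Wnt5a among them, signal largely without beta-catenin through planar polarity and related branches.

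Library totals ran from 23699525 to 35747083 expected counts, and levels are given as CPM, counts scaled to library size with TMM factors. Differences are log2 fold changes of doxorubicin over vehicle from edgeR's quasi-likelihood test, fitted on all 17035 genes that passed a filter on low counts and adjusted over them, with a threshold of 0.05. The bones carried the markers of their labelled tissue. Over the 12 osteoblast markers the summed level ran from 5970 to 19200 CPM in doxorubicin bones and from 6810 to 13900 CPM in vehicle bones. Marrow and muscle were also present. The 9 neutrophil markers summed to 10700 to 22200 CPM in doxorubicin and 13200 to 23500 CPM in vehicle bones, and the 7 skeletal muscle markers to 12000 to 29700 CPM and 3690 to 21400 CPM. Doxorubicin 1 had the most muscle signal and vehicle 3 the least, and none of the 123 markers listed for bone, blood and other cells was at 0 in every library. In whole bone, fewer cells of a type and less RNA per cell cannot be told apart.

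No member passed the threshold. Of the 42 members tested, 0 were called higher and 0 lower at an adjusted p under 0.05, which equals the 0% called in each direction among all tested genes, and the smallest adjusted p among members was 0.856. DESeq2 and limma-voom also called 0 members, whereas DESeq2 called 0.17% of all tested genes. At an unadjusted p under 0.05 there were 3 members (7.14% of those tested), against 5.36% of all tested genes (2.13% higher and 3.23% lower). They were Wif1, Wnt5a and Wnt4, each with the higher mean in doxorubicin. With library size as the only scaling there were 0, without vehicle 2 or without doxorubicin 1 there was 1, and without vehicle 4 there were 7. The count over all tested genes moved as well. It was 686 of 17035 with library size only, 647 of 17358 without vehicle 2 and 801 of 17360 without doxorubicin 1. Without vehicle 4 it was 1800 of 17221. Wnt5a was the 1 tested member whose groups did not overlap in the higher direction, where 1.64% of all tested genes did so (1.95% in the lower and 3.59% in either direction).

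As a description, 34 of the 42 tested members had a log2 difference above 0 and 8 below, with a median of 0.225. Over all tested genes 57.2% were above 0 and the median was 0.04. The members above 0 numbered 24 of 42, with a median of 0.08, when doxorubicin 1 and vehicle 3, the libraries with the most and least muscle signal, were both left out, an alternative chosen after seeing the data. With residual marrow as a covariate the median was 0.12, and without doxorubicin 1 alone it was 0.10. Marker lists lay on both sides of 0. Above 0 were 10 of 12 osteoblast markers (median 0.33) and 8 of 8 osteoclast markers (median 0.50), whose summed level was 1100 to 1440 CPM in doxorubicin and 572 to 1380 CPM in vehicle bones. Also above 0 were 7 of 7 muscle markers (median 0.39) and 5 of 6 adipocyte markers (median 0.87), the last with sums of 251 to 449 CPM in doxorubicin and 261 to 424 CPM in vehicle bones. Of 8 megakaryocyte markers 0 were above 0 (median −0.54), with sums of 799 to 1260 CPM in doxorubicin and 1210 to 1920 CPM in vehicle bones. The remaining lists had these numbers above 0 and medians. Osteocyte had 8 of 10 (0.23), chondrocyte 6 of 6 (1.455), tendon and periosteal fibroblast 7 of 9 (0.22) and endothelial 5 of 6 (0.10). Neutrophil had 5 of 9 (0.03), B lineage 5 of 10 (−0.02) and erythroid 0 of 9 (−0.37). Macrophage had 1 of 6 (−0.27), marrow stroma 1 of 6 (−0.19), T lineage 1 of 8 (−0.19) and Schwann 1 of 4 tested (−0.06). At an unadjusted p under 0.05 were 2 of 12 osteoblast, 3 of 8 osteoclast, 3 of 6 adipocyte and 5 of 8 megakaryocyte markers. So were 3 of 9 tendon and periosteal fibroblast markers and 1 of 8 T lineage markers. Each other list, muscle among them, had 0. The share among all tested genes was 5.36% (2.13% higher and 3.23% lower), and 0 markers passed the adjusted threshold. The part of these cells in the members' differences was not tested beyond the fits above.

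**Figure D1:**
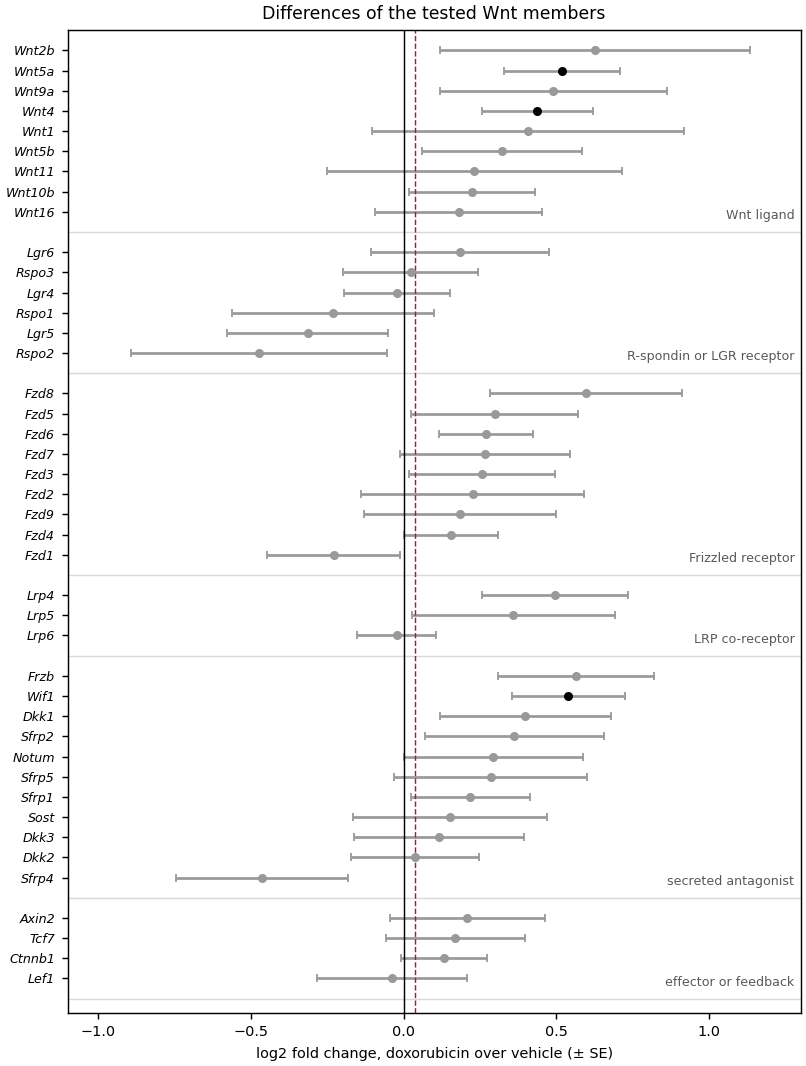
Log2 fold change of doxorubicin over vehicle (horizontal axis) for the 42 tested members, grouped by role, with bars of 1 SE from edgeR; black points mark an unadjusted p under 0.05 and the dashed line the median of all tested genes at 0.04. Most points lie right of 0, yet no member passed the adjusted threshold, and 4 of the 6 tested R-spondin and LGR genes lie left of 0.

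Per kilobase of exon, the most abundant member was Ctnnb1, which encodes beta-catenin, at 88.0 ± 12.7 CPM per kb in doxorubicin and 80.3 ± 4.06 CPM per kb in vehicle bones (SD, n = 4 each). The secreted antagonists came next. Sost stood at 38.7 ± 18.1 and 34.8 ± 7.25 CPM per kb in doxorubicin and vehicle bones, and Wif1, which encodes a secreted protein that binds Wnt ligands, at 22 ± 4.93 and 15.1 ± 2.71 CPM per kb (SD, n = 4 each). Sfrp4, a soluble Frizzled-like decoy, stood at 9.54 ± 1.76 CPM per kb in doxorubicin and 13.2 ± 5.46 CPM per kb in vehicle bones. By mean, antagonists took 3 of the 4 highest places. The values of Sfrp4 in single libraries overlapped those of the next gene, Lrp4, in both groups. The spreads of Wif1 and Sfrp4 overlapped in vehicle bones but not in doxorubicin bones.

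The receptor with the highest mean was Lrp4, at 7.16 ± 1.56 CPM per kb in doxorubicin and 5.07 ± 1.76 CPM per kb in vehicle bones. Fzd4 led the Frizzled genes at 4.41 ± 0.381 and 3.96 ± 0.809 CPM per kb, and Lgr4 led the R-spondin and LGR genes at 4.41 ± 0.866 and 4.47 ± 0.803 CPM per kb in doxorubicin and vehicle bones (SD, n = 4 each). Among ligands Wnt10b, at 3.07 ± 0.868 and 2.63 ± 0.418 CPM per kb, and Wnt5b, at 3.10 ± 1.13 and 2.47 ± 0.517 CPM per kb in doxorubicin and vehicle bones, did not differ beyond their spread. Exon length was taken over all annotated transcripts, so isoform use is not resolved.

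**Figure D2:**
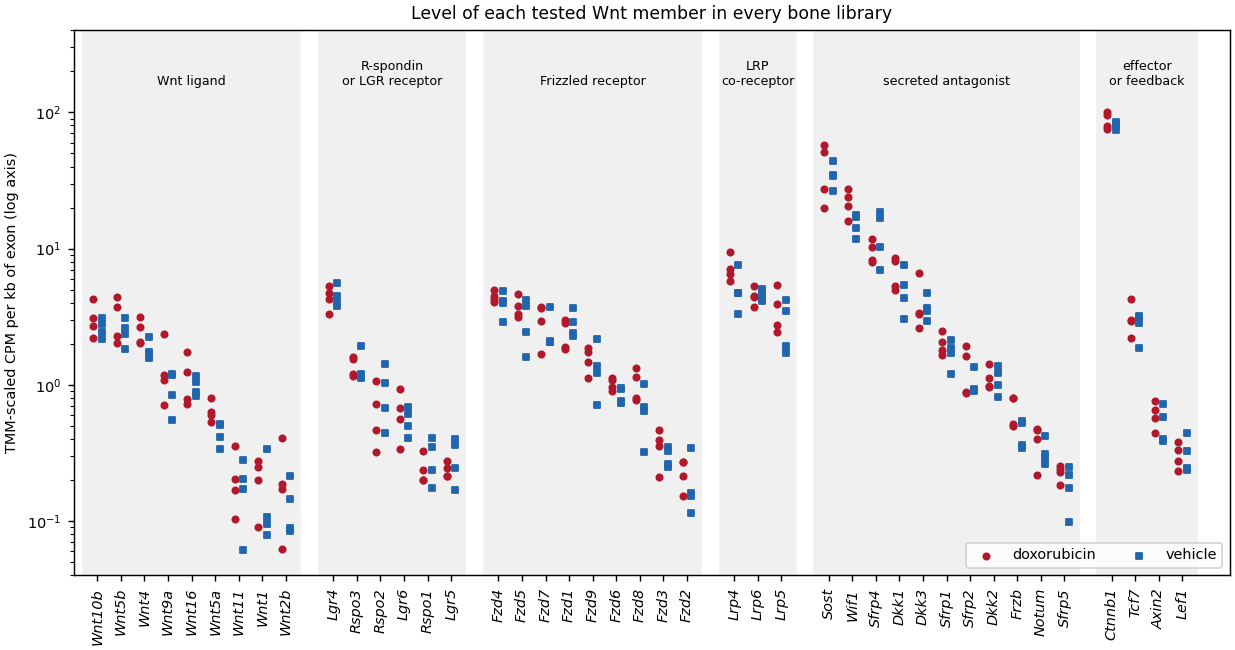
Level of each of the 42 tested members in every library, as TMM-scaled CPM per kb of exon on a log axis, with doxorubicin as red circles left of vehicle as blue squares (4 libraries each). Ctnnb1, Sost, Wif1 and Sfrp4 stand highest, Wnt10b and Wnt5b lead the ligands, and the groups overlap for every member shown except Wnt5a.

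Of the 19 ligand genes, 9 were tested and 10 had too few counts. Wnt4 (chr4:137277489-137299726) and Wnt5a (chr14:28504750-28527448, GRCm38, plus strand) were the ligands with the smallest p. Wnt5a measured 6.22, 4.93, 4.15 and 4.73 CPM in doxorubicin 1 to 4, against 3.22, 2.66, 3.96 and 4.05 CPM in vehicle 1 to 4. All 4 doxorubicin values were above all 4 vehicle values, with doxorubicin 3 and vehicle 4 close together. Its difference was 0.52 ± 0.19 (SE) with an adjusted p of 0.856, and leaving out single libraries gave 0.38 to 0.58. The 9 tendon and periosteal fibroblast markers, genes of the tissue that covers bone, summed to 941 CPM in doxorubicin 1, where Wnt5a was highest, and to between 490 and 530 CPM in the other doxorubicin bones. In vehicle bones they summed to between 512 and 614 CPM. Of the 9 markers 7 had a difference above 0, 3 had an unadjusted p under 0.05 and 2 had groups that did not overlap in the higher direction. Among all tested genes 57.2% were above 0 and 5.36% had an unadjusted p under 0.05 (2.13% higher). Of all tested genes 1.64% had groups that did not overlap in the higher direction, and 0 of the 9 markers passed the adjusted threshold. Their mean log2 CPM ran from 4.54 to 5.28 in doxorubicin and from 4.12 to 4.67 in vehicle bones, and their part in the Wnt5a values was not tested by a fit. Exons of Wnt5a overlap those of Gm2670 on the opposite strand, and the sources used here do not say whether counting used strand.

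Wnt4, which can signal in both branches, measured 13.1, 8.44, 8.63 and 11.2 CPM in doxorubicin 1 to 4, against 7.27, 7.05, 6.63 and 9.49 CPM in vehicle 1 to 4. Only vehicle 4 reached into the doxorubicin range. The difference was 0.44 ± 0.18 (SE) with an adjusted p of 0.856. It was 0.29 without doxorubicin 1 and 0.24 without both muscle extremes. Wnt10b, a canonical ligand that favours osteoblasts over fat cells, measured 14.4, 10.6, 9.19 and 7.51 CPM in doxorubicin and 10.6, 8.26, 7.36 and 9.52 CPM in vehicle bones. The groups overlapped widely, and the difference of 0.22 ± 0.21 (SE) was 0.01 without doxorubicin 1.

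The other tested ligands had differences between 0.18 and 0.63, each with groups that overlapped. Wnt16, known from mice and humans for its bearing on cortical bone, had 7.57, 3.45, 3.16 and 5.43 CPM in doxorubicin and 3.63, 3.87, 4.57 and 5.10 CPM in vehicle bones. Its lowest and highest values were both in doxorubicin bones, and the difference of 0.18 ± 0.28 (SE) was −0.12 without doxorubicin 1. Wnt1, whose loss causes brittle bone in humans and mice, averaged 0.487 ± 0.195 CPM in doxorubicin and 0.369 ± 0.295 CPM in vehicle bones (SD, n = 4 each), on 56 and 44 counts in all. Wnt2b had the largest ligand difference, 0.63 ± 0.51 (SE), which was 0.10 without doxorubicin 1. Wnt9a had 0.49 ± 0.37 and 0.06 without that library, and Wnt5b 0.32 ± 0.26 and 0.10. Wnt11, at 0.23 ± 0.48 (SE), was −0.16 without it. Across the class, 8 of the 9 tested ligands had their highest value in doxorubicin 1. This library also had the highest muscle and tendon marker sums and the lowest TMM factor (0.862). The part of these in the ligand values was not tested.

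Several ligand genes are neighbours in the mouse genome and differ in level. Wnt10b and Wnt1 lie 11706 bases apart on chromosome 15. Wnt10b stood at 3.07 and Wnt1 at 0.205 CPM per kb in doxorubicin bones, against 2.63 and 0.155 CPM per kb in vehicle bones. On chromosome 11, Wnt3a and Wnt9a lie 16175 bases apart. Wnt3a had 3 counts in all in each group, whereas Wnt9a had 463 in doxorubicin and 356 in vehicle bones. The Wnt9b and Wnt3 pair (24328 bases apart, chromosome 11) and the Wnt6 and Wnt10a pair (6193 bases apart, chromosome 1) were all below the filter. The gap between neighbours was present in both groups.

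The 10 untested ligands were Wnt2, Wnt3, Wnt3a, Wnt6, Wnt7a, Wnt7b, Wnt8a, Wnt8b, Wnt9b and Wnt10a. Wnt6 and Wnt7b had the most counts, with 52 each over the 8 libraries. Wnt7a had 0 counts in doxorubicin bones, which allows up to 3 counts over the group or 0.0273 CPM, and 1 count in vehicle bones. Wnt8b had 2 counts in doxorubicin and 0 in vehicle bones, which allows up to 3 counts or 0.0256 CPM. These limits cover counting error only. Wnt7b, a ligand that promotes bone formation in mice, had 12, 9, 6 and 4 counts in doxorubicin and 9, 3, 5 and 4 counts in vehicle bones. No difference was detectable for these ligands at this depth.

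**Figure D3:**
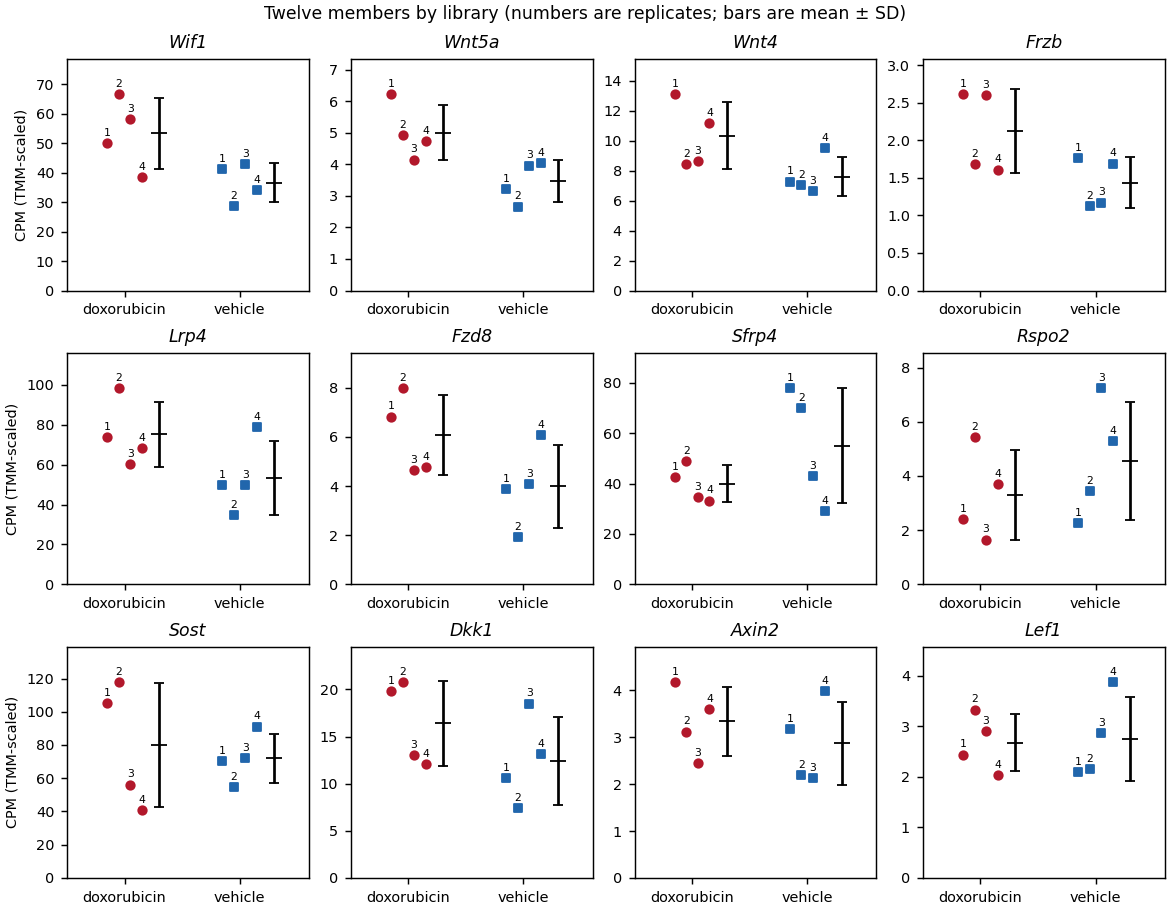
TMM-scaled CPM of 12 members in each library (numbers are replicates), doxorubicin left of vehicle, with mean ± SD over 4 mice beside the points. Wnt5a is the member shown with no overlap, Sost spreads widely within doxorubicin bones (40.7 to 118 CPM), and Sfrp4 spreads widely within vehicle bones (29.1 to 77.9 CPM).

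The R-spondins, secreted proteins that strengthen Wnt signals by keeping Frizzled receptors at the surface, and their LGR receptors lay on both sides of 0, with 2 of 6 tested genes above and a median of −0.13. Rspo2 measured 2.39, 5.44, 1.65 and 3.69 CPM in doxorubicin and 2.25, 3.45, 7.24 and 5.27 CPM in vehicle bones. The ranges overlapped, with the lowest value in doxorubicin 3 and the highest in vehicle 3. Its difference of −0.47 ± 0.42 (SE) was −0.18 without vehicle 3, −0.87 without doxorubicin 2 and −0.03 without both muscle extremes. Lgr5, a receptor gene and a canonical Wnt target in many epithelia, averaged 2.44 ± 0.296 and 3.01 ± 1.09 CPM in doxorubicin and vehicle bones (SD, n = 4 each), a difference of −0.31 ± 0.26 (SE). That of Lgr5 was −0.17 without vehicle 3 and −0.51 without vehicle 2. Vehicle 3 held the highest value of 3 of these 6 genes.

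Lgr4, the most abundant of these receptors, averaged 25.9 ± 5.10 CPM in doxorubicin and 26.3 ± 4.73 CPM in vehicle bones, and Rspo3 4.25 ± 0.722 and 4.15 ± 1.23 CPM (SD, n = 4 each). The means of both genes differed by less than their spread. Lgr6 had a difference of 0.18 ± 0.29 (SE), which was −0.10 without doxorubicin 2, and Rspo1 one of −0.23 ± 0.33 (SE), which was −0.06 without vehicle 2 and −0.45 without doxorubicin 2. Rspo4 was not tested, with 32 counts in doxorubicin and 24 in vehicle bones.

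Of the 10 Frizzled genes, which encode the receptors that bind Wnt directly, 9 were tested and 0 passed the threshold. Of the 9, 8 had a difference above 0, against 57.2% of all tested genes. Fzd8 had the smallest p, with 6.83, 7.99, 4.64 and 4.78 CPM in doxorubicin against 3.86, 1.91, 4.09 and 6.08 CPM in vehicle bones. Vehicle 2 was the lowest value and vehicle 4 lay within the doxorubicin range. The difference was 0.60 ± 0.32 (SE) with an adjusted p of 0.856, and 0.36 without vehicle 2. Fzd1 was the 1 tested Frizzled gene below 0, at 10.1 ± 2.63 CPM in doxorubicin and 11.8 ± 2.73 CPM in vehicle bones (SD, n = 4 each). Its difference of −0.23 ± 0.22 (SE) was −0.07 without vehicle 1 and −0.39 without doxorubicin 2. With marrow as a covariate in edgeR it was −0.39, with an unadjusted p of 0.0346 and an adjusted p of 0.683. In that fit 1202 of 17035 tested genes had an unadjusted p under 0.05, 690 of them lower.

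Fzd4 gave 25.2% ± 2.92 of the summed Frizzled level per kb in doxorubicin and 25.5% ± 4.98 in vehicle bones, and Fzd5 21.1% ± 2.82 and 19.2% ± 7.29 (SD, n = 4 each). Fzd1 gave 13.4% ± 1.76 in doxorubicin and 18.3% ± 4.51 in vehicle bones, and Fzd7 gave 16.5% ± 3.04 and 15.6% ± 2.96. None of these shares differed by more than the larger SD except that of Fzd1. Fzd6 averaged 4.89 ± 0.513 CPM in doxorubicin and 4.06 ± 0.519 CPM in vehicle bones (SD, n = 4 each), a difference of 0.27 ± 0.15 (SE) that was 0.17 without vehicle 3. Fzd2, Fzd3, Fzd4, Fzd5, Fzd7 and Fzd9 had differences between 0.16 and 0.30, of which those of Fzd4 and Fzd9 changed sign without vehicle 3, at −0.01 and −0.08. Leaving out single libraries moved Fzd2 between 0.05 (without vehicle 2) and 0.63 (without vehicle 4), and Fzd5 between 0.08 and 0.48 for the same libraries. Fzd3 moved between 0.09 (without doxorubicin 1) and 0.44 (without doxorubicin 4), and Fzd7 between 0.12 (without doxorubicin 2) and 0.50 (without vehicle 4).

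Fzd10 was below the filter but had groups that did not overlap, with 4, 8, 3 and 5 counts in doxorubicin 1 to 4 and 2, 1, 0 and 2 counts in vehicle 1 to 4. It was singled out after its values were seen. With no filter on low counts its fitted difference was 1.94 with an adjusted p of 0.765. A handful of reads per library carries a large counting error, and the value rests on 20 counts in doxorubicin and 5 in vehicle bones. Among tested genes 1.64% had groups that did not overlap in the higher direction. That share was not computed for genes below the filter.

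Lrp4, Lrp5 and Lrp6 encode large surface receptors. Lrp5 and Lrp6 carry the canonical signal, and Lrp4 binds sclerostin and aids its action on bone. Lrp4 (chr2:91457511-91513779, GRCm38, plus strand) measured 73.8, 98.4, 60.3 and 68.4 CPM in doxorubicin and 49.9, 34.6, 49.7 and 78.9 CPM in vehicle bones. Vehicle 4 was the second highest of all 8 values, and the other 3 vehicle values lay below the doxorubicin range. Its difference was 0.50 ± 0.24 (SE) with an adjusted p of 0.856, 0.33 without vehicle 2 and 0.31 without doxorubicin 2. Lrp5 averaged 35.4 ± 13.2 CPM in doxorubicin and 27.6 ± 11.6 CPM in vehicle bones (SD, n = 4 each), and its difference of 0.36 ± 0.33 (SE) was 0.07 without doxorubicin 2. Lrp6 averaged 61.2 ± 8.78 and 62.1 ± 6.13 CPM in doxorubicin and vehicle bones, a difference of −0.02 ± 0.13 (SE). Lrp4 gave 46.9% ± 2.47 of the summed level of the 3 genes per kb in doxorubicin and 40.2% ± 5.43 in vehicle bones, and Lrp6 gave 29.8% ± 4.61 and 37.8% ± 7.06 (SD, n = 4 each).

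Among the 13 secreted antagonists 11 were tested and 0 passed the threshold. Of the 11, 10 had a difference above 0, against 57.2% of all tested genes. Wif1 (chr10:121033960-121100650, GRCm38, plus strand) had the smallest p of all members. It measured 50.0, 66.6, 58.2 and 38.5 CPM in doxorubicin 1 to 4, against 41.2, 28.6, 42.8 and 34.1 CPM in vehicle 1 to 4. Doxorubicin 4 fell within the vehicle range and the other 3 doxorubicin values lay above it. The difference was 0.54 ± 0.19 (SE), with an adjusted p of 0.856 in edgeR and 0.554 in DESeq2. Leaving out single libraries gave 0.39 to 0.67, and leaving out both muscle extremes 0.65. Frzb, a secreted Frizzled-like decoy also known as a joint cartilage gene, measured 2.61, 1.68, 2.60 and 1.61 CPM in doxorubicin and 1.76, 1.12, 1.17 and 1.69 CPM in vehicle bones. Doxorubicin 1 and 3 stood above all other libraries, and the other values overlapped, for a difference of 0.57 ± 0.26 (SE), which was 0.36 without both muscle extremes. The 6 chondrocyte markers, which mark cartilage, summed to 68.4 to 196 CPM in doxorubicin and 41.3 to 165 CPM in vehicle bones. A difference above 0 was found for 6 of 6, against 57.2% of all tested genes. The part of cartilage in the Frzb values was not tested.

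Sfrp4, a gene whose loss thins cortical bone in humans and mice, was the 1 tested antagonist below 0. It measured 42.7, 49.0, 34.6 and 33.2 CPM in doxorubicin and 77.9, 69.9, 43.0 and 29.1 CPM in vehicle bones. Vehicle 1 and 2 were the highest and vehicle 4 was the lowest of all 8 libraries. The difference was −0.46 ± 0.28 (SE) with an adjusted p of 0.856, −0.25 without vehicle 1 and −0.71 without vehicle 4. With marrow as a covariate in edgeR its unadjusted p was 0.04 and its adjusted p 0.691. Sfrp1 and Sfrp2, of the same decoy family, had differences of 0.22 ± 0.20 and 0.36 ± 0.29 (SE), which were 0.07 without doxorubicin 2 and 0.13 without doxorubicin 4.

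Sost and Dkk1 encode inhibitors that bind LRP5 and LRP6, and both are targets of drugs or drug trials for bone loss. Sost (chr11:101962458-101967015, GRCm38, minus strand) measured 105, 118, 56.1 and 40.7 CPM in doxorubicin 1 to 4 and 70.1, 54.6, 72.0 and 91.1 CPM in vehicle 1 to 4. The doxorubicin bones held the 2 highest values and the lowest value of the 8. Its difference of 0.15 ± 0.32 (SE) was −0.13 without doxorubicin 2 and 0.37 without doxorubicin 4. Dkk1 measured 19.8, 20.8, 13.0 and 12.1 CPM in doxorubicin and 10.6, 7.42, 18.5 and 13.1 CPM in vehicle bones, with the groups overlapping. Its difference of 0.40 ± 0.28 (SE) was 0.21 without vehicle 2, 0.23 without doxorubicin 2 and 0.62 without vehicle 3. For both genes doxorubicin 1 and 2 were the highest libraries. These 2 libraries also had the highest osteoblast marker sums, 15500 and 19200 CPM. Those of doxorubicin 3 and 4 were 7130 and 5970 CPM, and those of vehicle bones 6810 to 13900 CPM. The 10 osteocyte markers, Sost among them, summed to 874, 907, 505 and 444 CPM in doxorubicin 1 to 4. In vehicle 1 to 4 they summed to 1110, 917, 649 and 540 CPM. The part of these cells in the Sost and Dkk1 values was not tested by a fit.

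The means of the remaining tested antagonists lay closer together than the larger SD of each. Notum, an enzyme that removes the lipid of Wnt proteins, averaged 0.935 ± 0.288 CPM in doxorubicin and 0.772 ± 0.166 CPM in vehicle bones (SD, n = 4 each). Dkk2 and Dkk3 had differences of 0.04 ± 0.21 and 0.12 ± 0.28, and Sfrp5 one of 0.29 ± 0.32 (SE). Sostdc1, a paralogue of Sost, was below the filter with 0, 3, 0 and 2 counts in doxorubicin and 2, 4, 5 and 3 counts in vehicle bones. Dkk4 had 0 counts in doxorubicin and 1 count in vehicle bones.

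Among beta-catenin, its nuclear partners and Axin2, differences lay between −0.04 and 0.21. Ctnnb1 measured 499, 526, 392 and 409 CPM in doxorubicin and 439, 388, 420 and 419 CPM in vehicle bones, with 3 of the 4 vehicle values between those of doxorubicin 4 and doxorubicin 1. Its difference was 0.13 ± 0.14 (SE) and 0.03 without doxorubicin 2. Axin2, a feedback inhibitor used widely as a readout of canonical signalling, measured 4.18, 3.12, 2.44 and 3.60 CPM in doxorubicin and 3.18, 2.19, 2.13 and 3.98 CPM in vehicle bones. The groups overlapped, and the difference of 0.21 ± 0.25 (SE) was 0.05 without vehicle 3 and −0.04 without both muscle extremes. Tcf7, which also serves T cells, averaged 8.12 ± 2.20 CPM in doxorubicin and 7.21 ± 1.63 CPM in vehicle bones, and Lef1, which early B cells also express, 2.68 ± 0.561 and 2.75 ± 0.834 CPM (SD, n = 4 each). The 8 T lineage markers summed to 29.4 to 48.2 CPM in doxorubicin and 40.5 to 60.2 CPM in vehicle bones. The 10 B lineage markers summed to 187 to 317 CPM in doxorubicin and 212 to 314 CPM in vehicle bones, and the relation of each gene to its list across libraries is given with the correlations.

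The members also varied between libraries of 1 group. Relative to each member's mean over the 8 libraries, the median over the 42 tested members was 0.29 and 0.29 (log2) in doxorubicin 1 and 2 but −0.09 and −0.09 in doxorubicin 3 and 4. In vehicle 1 to 4 it was 0.02, −0.30, −0.17 and 0.09. Doxorubicin 1 or 2 held the highest value of 27 members, 14 in doxorubicin 1 and 13 in doxorubicin 2. The same values over all tested genes are not given here, so the pattern is not shown to be particular to the members. These values use TMM factors of 0.862 in doxorubicin 1, the lowest of the 8 libraries, 1.02 in doxorubicin 2 and 0.895 in vehicle 2. The part of the scaling was not tested. Vehicle 2 held the lowest value of 15 members and vehicle 3 that of 9. The antagonists were mostly highest in doxorubicin 2 (6 of 11), whereas the ligands were mostly highest in doxorubicin 1.

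**Figure D4:**
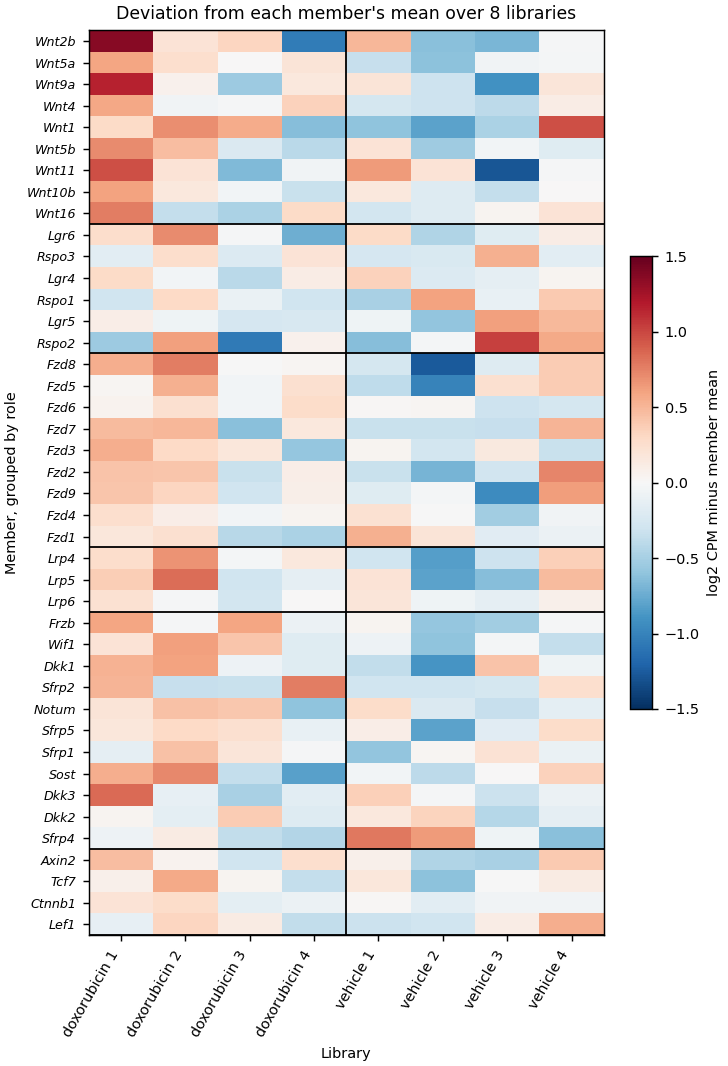
Log2 CPM of each tested member minus its mean over the 8 libraries (colour), members in rows by role and libraries in columns, doxorubicin left of vehicle. Doxorubicin 1 and 2 are mostly red and vehicle 2 mostly blue, with median deviations of 0.29, 0.29 and −0.30, whereas those of doxorubicin 3 and 4 are −0.09.

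Across the 8 libraries, 6 relations between a member and the mean log2 CPM of a marker list were examined with two-sided exact permutation tests, adjusted over the 6. Dkk1 had a Pearson r of 0.732 with the osteoblast list (p = 0.0389, adjusted p = 0.170) and a Spearman rho of 0.762 (p = 0.0368, adjusted p = 0.166). Wif1 had an r of 0.667 (p = 0.0736, adjusted p = 0.170) and a rho of 0.690 (p = 0.0694, adjusted p = 0.166) with the same list. Neither passed the adjustment, and without doxorubicin 1 and 2, the libraries farthest from the median of that list, r was 0.391 for Dkk1 and 0.322 for Wif1. Lef1 had an r of 0.649 (p = 0.0848, adjusted p = 0.170) and a rho of 0.667 (p = 0.0831, adjusted p = 0.166) with the B lineage list, and its r was 0.626 without the 2 farthest libraries. Sost had an r of 0.563 (p = 0.148, adjusted p = 0.222) and a rho of 0.476 (p = 0.243, adjusted p = 0.320) with 9 other osteocyte genes, and r was 0.448 without the 2 farthest. Wnt5a had an r of 0.473 (p = 0.222, adjusted p = 0.266) and a rho of 0.452 (p = 0.267, adjusted p = 0.320) with the tendon and periosteal fibroblast list. Without doxorubicin 1 and vehicle 3, the farthest libraries, its r was −0.04, whereas scaling by library size alone gave 0.396 with all 8 libraries and 0.519 without the same pair. Tcf7 had an r of 0.267 (p = 0.533) and a rho of 0.0476 (p = 0.935) with the T lineage list, unchanged by the adjustment, and its r was 0.136 without the 2 farthest libraries. Scaling by library size alone moved other relations too, though 0 of the 6 passed the adjustment. Lef1 then had an r of 0.786 and a rho of 0.857 (exact permutation, adjusted p = 0.0798 and 0.0642) and an r of 0.844 without its 2 farthest libraries. Tcf7 had an r of 0.537, Dkk1 0.766, Wif1 0.702 and Sost 0.583. Without its 2 farthest libraries, the same pair under both scalings, Sost had 0.475. For Dkk1, Wif1 and Tcf7 the farthest pair changed with the scaling, so their values without it cover unlike sets of libraries. Without vehicle 2 and doxorubicin 2, r was 0.28 for Dkk1 and 0.0335 for Wif1. For Tcf7 it was 0.676 without doxorubicin 1 and vehicle 3, where the TMM value of 0.136 left out doxorubicin 1 and 4. The libraries share the treatment groups, so these values mix differences between mice and between groups.

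Of 70 other genes of the pathway, listed with earlier results of these data known, 66 were tested, and 0 passed the threshold in either direction. At an unadjusted p under 0.05 there were 5 (7.58%), 3 above and 2 below 0, against 5.36% of all tested genes. The 66 genes had a median of 0.11, with 49 above 0, against 57.2% of all tested genes above 0. Leaving out single libraries moved the median between 0.02, with 37 above 0, without doxorubicin 2 and 0.16, with 55 above 0, without vehicle 1. It was 0.03, with 38 above 0, both without vehicle 2 and without both muscle extremes. Daam1, a formin that acts below Dishevelled in the planar polarity branch, had the smallest p. It measured 53.9, 55.8, 65.0 and 57.9 CPM in doxorubicin 1 to 4, against 67.3, 81.6, 95.0 and 72.3 CPM in vehicle 1 to 4. The groups did not overlap, as for 1.95% of all tested genes in the lower direction, and the difference was −0.44 ± 0.13 (SE) with an adjusted p of 0.825 in edgeR and 0.223 in DESeq2. Leaving out single libraries gave −0.52 to −0.38.

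Apcdd1, a membrane inhibitor of Wnt receptors, measured 5.74, 6.94, 5.73 and 4.52 CPM in doxorubicin and 4.31, 2.80, 3.83 and 4.83 CPM in vehicle bones, a difference of 0.54 ± 0.20 (SE). Doxorubicin 4 was below vehicle 4, and the other 3 doxorubicin values were above the vehicle range. Nkd2, which binds Dishevelled and limits its action, had a difference of 0.46 ± 0.19 (SE), and 0.29 without vehicle 2. Ror1, a receptor for Wnt5a, averaged 1.63 ± 0.175 CPM in doxorubicin and 1.14 ± 0.188 CPM in vehicle bones (SD, n = 4 each). Its groups overlapped, with doxorubicin 4 at 1.39 CPM and vehicle 2 at 1.40 CPM. The difference was 0.53 ± 0.20 (SE), and 0.425 to 0.621 with single libraries left out. Ctnnbip1, which blocks the binding of beta-catenin to TCF proteins, had a difference of 0.25 ± 0.14 (SE), 0.15 without vehicle 3. Myc, a growth regulator and canonical target in gut, had a difference of −0.71 ± 0.30 (SE) that was −0.31 without vehicle 1, where it stood at 47.7 CPM against 17.4 to 26.7 CPM in the other vehicle bones. Each of these 5 genes had an adjusted p of 0.856, and Sp5, a direct target in embryos, had 0 counts in every library.

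TCF and LEF proteins bind a short DNA motif, searched here as CTTTGAT or CTTTGAA, or as ATCAAAG or TTCAAAG for the other strand, in the 250 bases before each gene start listed by RefSeq (GRCm38.p6). A start was listed for 36 members, with 44 windows in all. The motif was in 3 of the 44 (6.82%), against 7.48% of all 32851 windows. The sequences that hold it are shown because these are the members with the motif of the pathway's own nuclear factors in the window before a RefSeq start. Capitals mark the motif, read on the gene's strand from 5′ to 3′. It begins 117, 51 and 71 bases before the listed start of Dkk1, Wnt11 and Wnt5b. They span chr19:30549595-30549624 (minus strand), chr7:98834862-98835111 (plus strand) and chr6:119449387-119449636 (minus strand), and for Dkk1 only 30 bases are given because annotated exons cover 169 of the 250 bases. GENCODE starts Dkk1 farther upstream than RefSeq, so the printed stretch lies within an annotated exon and the motif begins 52 bases after that start. The Wnt5b window holds no annotated exon of that gene, but its motif lies 94890 bases after the most upstream GENCODE start.
Dkk1: tcctcccaaagCTTTGAAatcccatcccgg
Wnt11: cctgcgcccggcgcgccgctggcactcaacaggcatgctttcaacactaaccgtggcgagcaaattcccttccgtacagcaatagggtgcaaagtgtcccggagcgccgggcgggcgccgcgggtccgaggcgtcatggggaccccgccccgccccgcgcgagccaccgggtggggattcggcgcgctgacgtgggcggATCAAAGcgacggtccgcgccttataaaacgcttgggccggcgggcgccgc
Wnt5b: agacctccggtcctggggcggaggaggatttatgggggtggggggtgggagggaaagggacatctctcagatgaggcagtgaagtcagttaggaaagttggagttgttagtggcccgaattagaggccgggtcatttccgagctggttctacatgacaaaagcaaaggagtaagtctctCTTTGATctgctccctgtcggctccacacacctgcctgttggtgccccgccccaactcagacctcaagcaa

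The 3 genes had log2 differences of 0.40 for Dkk1, 0.23 for Wnt11 and 0.32 for Wnt5b, and 0 of them passed the threshold. Wif1, Wnt4 and Axin2 had a listed start and no match in the window. A match in these letters is a description of the sequence, and its absence says only that they are not in this window.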

How the data were processed

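Polyadenylated RNA of 8 bone libraries was sequenced with a stranded kit and adaptors carrying molecular identifiers, per the labels' protocols. The values deposited by the authors are expected counts per gene, all whole numbers, rounded before use with no change. Per the submitters' processing notes the tools were STAR 2.5.3a and RSEM 1.3.0, and the build GRCh38, which is human although the gene identifiers are mouse. Not given in the sources used here are the annotation, the strand setting and the use of the identifiers. Symbols came from the table, and positions and exon lengths from GENCODE M21 (GRCm38), matched with version for 55 of 56 members and without it for Tcf7.

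Genes were filtered with filterByExpr (minimum count 10, minimum total 15), scaled by TMM and tested with edgeR 4.0.16 in R 4.3.3 (robust quasi-likelihood, two-sided, Benjamini-Hochberg over 17035 genes, threshold 0.05), without a block, and the procedure was tested on simulated data. The SE comes from the F statistic. Alternatives were limma-voom (limma 3.58.1), DESeq2 1.42.0, other scalings and filters, a replicate block, a covariate for residual marrow (mean log2 CPM of neutrophil and erythroid markers), a threshold of 0.1 and each library left out. Replicates are separate mice. Each group held 4 mice, and the 14 untested members had too few counts to pass the filter. What limited precision was not tested.

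The members, lists and tests were chosen with earlier results of these data known. Named were the 15 members with the smallest p, a fixed set, the most abundant member of each role, and up to 6 other pathway genes. The other members are given to account for all 56, and Fzd10 and Sp5 were singled out after their values were seen. Exons of Ctnnb1, Axin2, Lef1, Notum, Rspo3, Sfrp2, Fzd5, Fzd6, Wnt11, Wnt5a and Wnt7b overlap another gene on the opposite strand, so their counts are uncertain where strand was not used. Those of Ctnnb1 also overlap Mir7090 on the same strand, which the use of strand would not separate. No promoter was used for Dkk3, Dkk4, Fzd2, Fzd3, Fzd6, Fzd8, Lgr5, Lrp4, Lrp5, Lrp6, Notum, Rspo2, Rspo3, Sfrp1, Sfrp4, Sostdc1, Wnt10a, Wnt5a, Wnt7b or Wnt8a.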

Additional observations from a re-analysis of the deposited data

Results flagged for a closer look

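In 4 of 84 sets of 4 values (42 tested members in each treatment group), 1 library stood apart from the other 3, by Dixon's test at the 95% level. Chance gives about 1 in 20 such sets. All 4 were in vehicle bones, 3 of them in vehicle 4. There Fzd7 stood at 16.9 CPM, Sfrp2 at 2.90 CPM and Wnt1 at 0.810 CPM, each the highest vehicle value. Without vehicle 4 the log2 difference of doxorubicin over vehicle was 0.50 for Fzd7, against 0.27 with all libraries, 0.50 for Sfrp2, against 0.36, and 1.10 for Wnt1, against 0.41. In vehicle 3, Rspo3 stood at 5.99 CPM, and its difference was 0.225 without that library, against 0.02.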

How the results depend on the processing

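No alternative put a member or another pathway gene past the threshold, at an adjusted p of 0.05 or 0.1. Over all tested genes DESeq2 called 29 and edgeR with no filter 1, against 0, with 913 genes at an unadjusted p under 0.05. The count of 3 members at an unadjusted p under 0.05 was 0 with library size only, 4 with the marrow covariate (2 of them lower), 1 without both muscle extremes and 1 to 7 with each library left out. The counts over all tested genes were 686 of 17035 with library size only and 1202 of 17035 (690 lower) with the marrow covariate. Without both muscle extremes there were 778 of 17068. Leaving out each library gave from 639 of 17349 (without doxorubicin 4) to 1800 of 17221 (without vehicle 4). Of the 42 tested members, 25 kept their sign under each alternative that tested them, 17 for 35 members and 16 for the 7 left out by a minimum of 1 CPM in 4 libraries. Signs changed with the marrow covariate for Dkk3 (−0.143), Lef1 (0.065), Sost (−0.02) and Wnt11 (−0.205), and with library size only for Rspo3 (−0.042). Without both muscle extremes, an alternative added after seeing the data, they changed for Axin2 (−0.043), Dkk2 (−0.089), Dkk3 (−0.342), Fzd4 (−0.026), Fzd9 (−0.136), Lef1 (0.025), Sost (−0.004), Wnt10b (−0.054), Wnt11 (−0.459), Wnt16 (−0.077), Wnt2b (−0.068) and Wnt9a (−0.126). With each library left out, values ran from −0.131 to 0.146 for Dkk2, −0.263 to 0.259 for Dkk3, −0.009 to 0.269 for Fzd4, −0.076 to 0.475 for Fzd9, −0.19 to 0.148 for Lef1, −0.144 to 0.105 for Lgr4, −0.102 to 0.387 for Lgr6, −0.128 to 0.038 for Lrp6, −0.088 to 0.225 for Rspo3, −0.129 to 0.372 for Sost, −0.048 to 0.3 for Tcf7, −0.16 to 0.552 for Wnt11 and −0.124 to 0.317 for Wnt16. The correlation of Wnt5a was −0.0425 without the 2 farthest libraries, but 0.519 without them when scaled by library size only. The cause of these changes was not tested.

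With the replicate number as a block, 0 members passed, 3 had an unadjusted p under 0.05 and the median was 0.24. Over all tested genes 1466 had an unadjusted p under 0.05 in edgeR with the block, against 913 without it. Same-numbered libraries deviated with correlations of 0.342, −0.266, 0.430 and 0.0902 for numbers 1 to 4. Vehicle 1, 3 and 4 each correlated best with the doxorubicin library of the same number, whereas vehicle 2 did not. The main fit did not take the numbers to pair the mice, and these values do not settle whether they do.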
